A study of Mus musculus with 14 samples.

Results

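A set of 8 X-linked genes linked to the germline or named after testis cDNA clones were followed through embryonic stem (ES) cell differentiation. They were taken by name, namely Taf7l, Rhox1, Rhox13, 1700013H16Rik, 1700080O16Rik, 4930502E18Rik, 4930519F16Rik and 4930550L24Rik, and make up 8 of the 355 genes with SNPs in the deposited counts. Together they hold 30 of the 2239 SNPs, and every one of these 30 SNPs lies in the exons of 1 gene. The cells were 1 line of female Setdb1+/+ Xist∆A/+ 129/CAST F1 ES cells derived from an embryo. Because the mutant Xist allele is on the 129 X chromosome, that chromosome remains active (Xa), and X inactivation falls on the X of the castaneus (CAST) parent (Xi). The labels give the strain of the dams as 129/C57 and the counts name the mm10 reference base and the other base, so reading the reference base as the 129 allele is an assignment on which every 129 and CAST value below rests. The 14 RNA-seq libraries were from untransduced cells at day 0 of differentiation, and from transduced cells sampled at day 3 and day 5, which carried a non-silencing hairpin (Nons) or 1 of the 2 hairpins against Setdb1, shSetdb1.4 and shSetdb1.6, with 2 replicates per condition. All conditions share the line, its Xist∆A allele and its 2 wild-type Setdb1 alleles, and the cultures are described as containing some XO cells. The transduced cells were selected with puromycin and the day 0 cells were not, so differentiation and transduction cannot be told apart in any comparison with day 0.

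Germline genes are active in developing sperm or eggs and are mostly kept off in somatic tissues, in many cases by DNA methylation and repressive histone marks at their promoters. Some of them are transcribed in mouse ES cells and are then switched off as the cells differentiate. Setdb1 is a histone H3 lysine 9 methyltransferase that is known to repress germline genes and retroviral elements in ES cells. Taf7l encodes a germ cell relative of a subunit of the general transcription factor TFIID. Rhox1 and Rhox13 belong to the reproductive homeobox cluster of the X chromosome. RefSeq lists Ct55 as the symbol of 4930502E18Rik, a cancer/testis antigen name, and gives Slx2 and Xlr6 as synonyms of 1700013H16Rik, which are names of an X-linked family with many similar copies, and mage-k1, a melanoma antigen family name, as a synonym of 4930550L24Rik.

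Each gene was read through the bases at which the 129 and CAST X chromosomes differ. To show what was counted, the windows below give the mm10 reference base, taken here as the 129 base, in capitals, 5′ to 3′ on the strand of the gene, for the coding SNPs of Taf7l, Rhox1 and Rhox13 and for a coding SNP of 4930550L24Rik. With positions counted from 1 at the 5′ end of the window, the CAST changes are T15C in Taf7l (chrX:134470427, exon 5), A15T in Rhox1 (chrX:37217938, exon 3), C15G in Rhox13 (chrX:38121669, exon 1) and A15G in 4930550L24Rik (chrX:58919825).
Taf7l: tactgtaattggaaTtagtgaagggaagg
Rhox1: gagtggaccgggccAgcctgggtctggag
Rhox13: tgttcctgctgccgCtgctattcagattc
4930550L24Rik: gggacaagcccagcAgtgtctcccactct

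Rhox1 and Rhox13 therefore rest on 1 SNP each, Taf7l and 4930519F16Rik on 2, 1700013H16Rik and 4930502E18Rik on 5, 1700080O16Rik on 6 and 4930550L24Rik on 8. In mm10 Taf7l lies at chrX:134460118-134476490, Rhox1 at chrX:37213804-37222258, Rhox13 at chrX:38121219-38129967 and 1700080O16Rik at chrX:51968695-51972772. 4930502E18Rik (chrX:53724826-53738441, forward strand) and 1700013H16Rik (chrX:53742901-53757831, reverse strand) are neighbours whose 3′ ends are 4460 bases apart. 4930550L24Rik lies at chrX:58909360-58920304. 4930519F16Rik (chrX:103182971-103311782) is annotated as a transcribed unitary pseudogene and overlaps Nap1l2 and 4 processed pseudogenes, but its 2 SNPs are in its own exons alone. No source states that strand was used in counting, and reads of 1700013H16Rik could be shared with similar copies, so its values are uncertain to that extent.

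The libraries held between 32972 and 101511 reads over all SNPs, with the lowest total in replicate 2 of Nons at day 5. Levels are given as reads per 100000 SNP reads of the library, so 1 read stood for between 0.985 and 3.03 of these units. They depend on the number and place of a gene's SNPs and are compared between libraries of the same gene, not between genes. Fewer cells expressing a gene and less RNA per cell cannot be told apart in these bulk libraries. The genes outside the X chromosome were not analysed here, so neither the knockdown of Setdb1 nor autosomal markers were checked. Nr0b1, an X-linked marker of pluripotent cells, was between 737 and 1611 in the 8 libraries of day 0 and day 3 and between 10.4 and 45.8 in the 6 libraries of day 5. From day 3 to day 5 the neural marker Sox3 (log2 change 0.78, adjusted p = 0.101, edgeR) did not pass, of the trophoblast markers Esx1 fell (-1.31) and Rhox9 rose (1.02), and 0 markers of blood or testis somatic cells had SNPs. Their part in the changes below was not tested.

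The clearest change in the 8 genes was between day 3 and day 5, and it was in opposite directions for different genes. Averaged over Nons and both Setdb1 hairpins, 1 gene (Taf7l) rose and 5 genes (4930550L24Rik, 4930519F16Rik, 1700080O16Rik, 4930502E18Rik and Rhox1) fell by the quasi-likelihood test of edgeR with Benjamini-Hochberg adjustment, while 1700013H16Rik and Rhox13 did not pass. Changes were common on the X chromosome in this comparison, with 53.7 % of the 354 genes tested past the threshold of 0.05, 28 % higher and 25.7 % lower. The median log2 change was -1.45 over the 8 genes and -0.01 over all genes tested.

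In Nons cells alone, which carried no hairpin against Setdb1, 1 of the 8 genes rose from day 3 to day 5 and 3 fell, in a comparison in which 26.3 % of the 354 genes passed, 13.3 % higher and 13.0 % lower. Taf7l rose by a log2 change of 1.48 (SE 0.38, adjusted p = 0.0104), while 4930550L24Rik (-6.23, adjusted p = 2.42e-06), 1700080O16Rik (-2.40, adjusted p = 0.0140) and 4930502E18Rik (-1.32, adjusted p = 0.0237, edgeR) fell. 4930519F16Rik (-1.25, adjusted p = 0.264) and Rhox1 (-1.18, adjusted p = 0.0687, edgeR) were lower and did not pass, and neither did Rhox13 (0.40) and 1700013H16Rik (-0.13). With 1 Nons library left out, 4930550L24Rik passed in each of 4 fits, the call of Taf7l was lost without replicate 2 of day 3 (adjusted p = 0.0783), that of 1700080O16Rik without replicate 1 of day 3 (adjusted p = 0.0665) or replicate 2 of day 5 (adjusted p = 0.0587), and that of 4930502E18Rik without replicate 2 of day 3 (adjusted p = 0.234) or either replicate of day 5 (adjusted p = 0.118 and 0.0597, edgeR). With 1 SNP per gene the change of 4930502E18Rik was -2.75 (adjusted p = 0.00586, edgeR). Without replicate 1 of day 5, the changes of 4930550L24Rik and 1700080O16Rik became -10.5 and -4.77 on the log2 scale, since the other Nons library of day 5 held 0 and 1 reads of them.

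**Figure D1:**
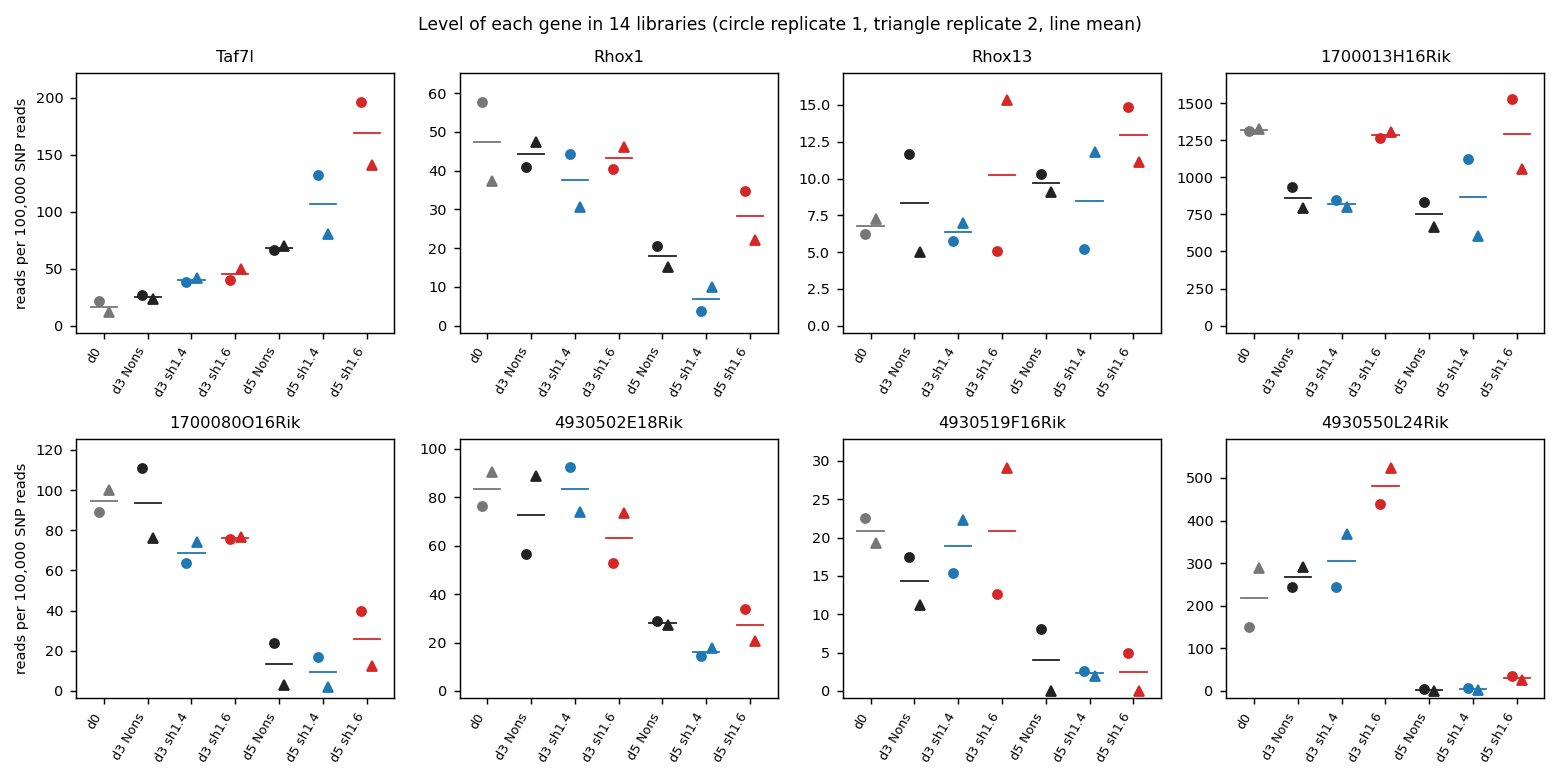
Reads per 100000 SNP reads (y axis, linear, a separate scale for each gene) in the 7 conditions (x axis) for the 8 genes. Circles are replicate 1, triangles replicate 2 and lines the mean of 2. Taf7l is highest at day 5, from 66.6 to 196, whereas the 6 day 5 libraries of 4930550L24Rik lie between 0 and 35.6 and those of day 3 between 243 and 523.

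4930550L24Rik had the largest fall of the 8 genes. Its level was 149 and 290 in replicates 1 and 2 at day 0, and at day 3 it was 243 and 290 with Nons, 243 and 368 with shSetdb1.4, while shSetdb1.6 gave 439 and 523. At day 5 only 4 and 0 reads were left with Nons, 6 and 2 with shSetdb1.4, while shSetdb1.6 gave 36 and 18, which are levels of 4.59 and 0, then 7.77 and 1.97, and last 35.6 and 25.0. No library of day 5 overlapped any library of day 3. The log2 change was -5.35 (SE 0.31, adjusted p = 1.02e-09 by the quasi-likelihood test of edgeR with Benjamini-Hochberg adjustment), and all 8 SNPs, spread over coding sequence and UTR, were lower at day 5. In Nons cells alone the level had not passed the test between day 0 and day 3 (log2 difference 0.40, adjusted p = 0.541, edgeR), so the fall was measured after day 3.

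The promoter of 4930550L24Rik (GRCm38.p6, chrX:58911211-58911510, forward strand) and that of 1700080O16Rik (chrX:51972723-51973022, reverse strand), another gene that fell, are shown because each holds the letters TGACGT, the core of a cAMP response element, to which the testis activator CREM binds. The capitals mark these letters, 29 bases before the RefSeq start of 4930550L24Rik and 48 bases before that of 1700080O16Rik. The window of 4930550L24Rik lies inside the gene interval given above, so its RefSeq start is not the start of that interval.
4930550L24Rik: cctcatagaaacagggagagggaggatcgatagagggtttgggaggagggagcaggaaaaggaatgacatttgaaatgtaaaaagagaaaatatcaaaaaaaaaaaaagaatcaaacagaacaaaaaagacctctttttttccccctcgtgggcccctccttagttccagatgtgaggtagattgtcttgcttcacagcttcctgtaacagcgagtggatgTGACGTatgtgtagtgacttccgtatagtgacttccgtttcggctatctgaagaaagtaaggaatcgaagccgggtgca
1700080O16Rik: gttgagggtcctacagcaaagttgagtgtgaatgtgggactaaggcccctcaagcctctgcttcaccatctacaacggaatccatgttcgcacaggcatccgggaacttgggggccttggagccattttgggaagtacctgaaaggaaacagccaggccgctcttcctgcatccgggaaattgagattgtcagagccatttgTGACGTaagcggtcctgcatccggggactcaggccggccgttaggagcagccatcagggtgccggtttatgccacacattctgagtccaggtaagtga

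These letters, read on both strands, were in 7.51 % of the 32851 RefSeq promoter windows of the same length and in 7.44 % of those on the X chromosome. They were looked for after the sequences had been seen, and the match describes the window only.

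1700080O16Rik, whose function is not described here, was between 63.7 and 111 in the 8 libraries of day 0 and day 3. At day 5 its replicates were 24.1 and 3.03 with Nons, 16.8 and 1.97 with shSetdb1.4, while shSetdb1.6 gave 39.6 and 12.5. In each condition of day 5 replicate 2 was the lower one, yet all day 5 libraries stayed below all day 3 libraries. The log2 change from day 3 to day 5 was -2.24 (SE 0.37, adjusted p = 0.000142, edgeR), with all 6 SNPs lower.

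The pseudogene 4930519F16Rik was between 11.3 and 29.0 at day 0 and day 3 and between 0 and 8.04 at day 5, from at most 7 reads in a library. It had 0 reads in replicate 2 of Nons and of shSetdb1.6 at day 5, where 3 reads, the number that a count of 0 still allows, would be 9.10 and 4.16. The log2 change was -2.32 (SE 0.48, adjusted p = 0.000834, edgeR), and both SNPs were lower. Its size rests on few reads, since it was -4.0 without replicate 1 of Nons at day 5 (adjusted p = 0.000688) and -3.66 without replicate 1 of shSetdb1.6 at day 5 (adjusted p = 0.000367, edgeR), each of which left the condition with 0 reads.

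4930502E18Rik, the cancer/testis antigen gene, was between 53.0 and 92.6 in the libraries of day 0 and day 3. At day 5 it was 28.7 and 27.3 with Nons, 14.2 and 17.7 with shSetdb1.4, while shSetdb1.6 gave 33.7 and 20.8, again without overlap with day 3. The log2 change was -1.57 (SE 0.23, adjusted p = 3.96e-05, edgeR), and all 5 SNPs were lower. Its neighbour 1700013H16Rik did not move with it. The level of 1700013H16Rik was between 794 and 1303 at day 3 and between 607 and 1529 at day 5, and the log2 change was 0.03 (SE 0.14, adjusted p = 0.864, edgeR).

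1700013H16Rik instead differed among the libraries of a single day. At day 0 it was 1310 and 1322, and at day 3 it was 932 and 794 with Nons, 847 and 798 with shSetdb1.4, while shSetdb1.6 gave 1265 and 1303. The shSetdb1.6 libraries thus stood at the day 0 level and above the other 4 libraries of day 3. The log2 difference of shSetdb1.4 from shSetdb1.6 at day 3 was -0.53 (SE 0.25, adjusted p = 0.325, edgeR), which did not pass the threshold.

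Rhox1, the homeobox gene, was between 30.7 and 57.6 at day 0 and day 3. At day 5 it was 20.7 and 15.2 with Nons, 3.89 and 9.85 with shSetdb1.4, while shSetdb1.6 gave 34.7 and 22.2. The higher shSetdb1.6 library overlapped the range of day 3. The log2 change was -1.32 (SE 0.27, adjusted p = 0.000740, edgeR). Rhox13, from the same cluster, was low throughout, between 2 and 15 reads in a library and between 5.00 and 15.4 in level, with a log2 change of 0.42 (SE 0.38, adjusted p = 0.359, edgeR). At this depth a change of Rhox13 of the size seen in Rhox1 would be a few reads per library.

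**Figure D2:**
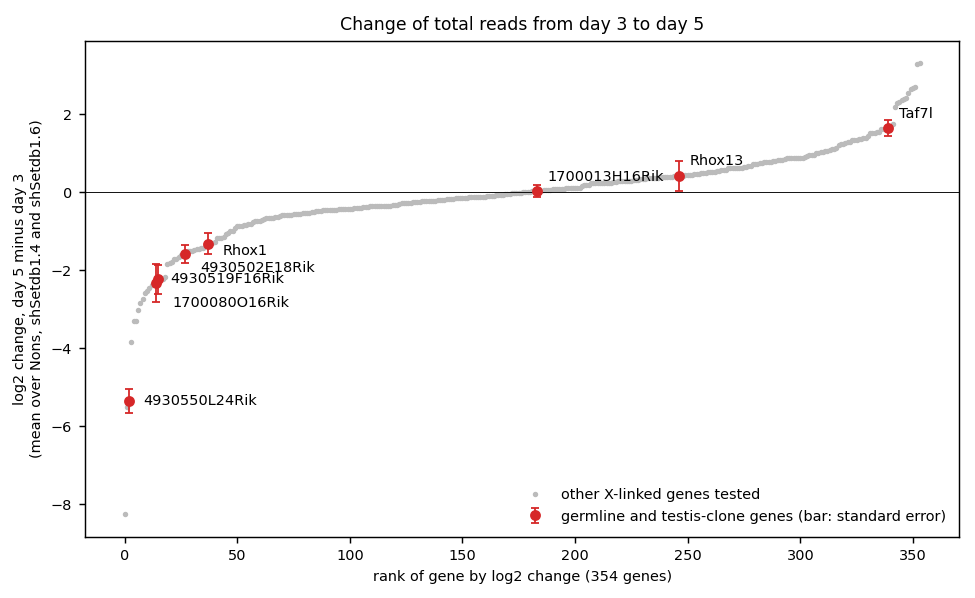
Log2 change of total reads from day 3 to day 5, averaged over Nons and both hairpins (y axis), for the 354 genes tested in order of their change (x axis). Red points are the 8 genes with their standard errors and grey points the other genes. 4930550L24Rik lies near the lower end at -5.35 and Taf7l near the upper end at 1.64.

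Taf7l went the other way. It was 21.3 and 12.1 at day 0, and at day 3 it was 27.2 and 23.8 with Nons, 38.6 and 41.9 with shSetdb1.4, while shSetdb1.6 gave 40.4 and 49.5. At day 5 it was 66.6 and 69.8 with Nons, 132 and 80.8 with shSetdb1.4, while shSetdb1.6 gave 196 and 142. Every day 5 library was above every day 3 library. The log2 change from day 3 to day 5 was 1.64 (SE 0.21, adjusted p = 1.01e-05, edgeR), and both SNPs were higher. With Nons alone the log2 change from day 0 to day 5 was 2.22 (SE 0.39, adjusted p = 0.000590, edgeR). Of the X-linked genes of TFIID and of Mediator, the complex that links transcription factors to RNA polymerase, Med12 (0.68) and Med14 (1.05) also rose from day 3 to day 5, and Taf1 (-0.45, adjusted p = 0.0538) and Taf9b (-0.60, adjusted p = 0.115) did not pass edgeR's test.

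Among the 8 genes, the day 5 libraries of 1 gene (Taf7l) lay above all day 3 libraries, as in 12.1 % of the genes tested, and those of 4 genes (4930550L24Rik, 1700080O16Rik, 4930502E18Rik and 4930519F16Rik) lay below them, as in 17.8 %. The promoters of Taf7l (GRCm38.p6, chrX:134476441-134476740, reverse strand) and 4930502E18Rik (chrX:53724581-53724880, forward strand) are shown together because both hold an E-box, CACGTG, although their levels went in opposite directions. Complexes that bind this motif through Max are known repressors of germline genes in ES cells. The capitals mark the E-box, which begins 49 bases before the start of Taf7l and 53 bases before that of 4930502E18Rik.
Taf7l: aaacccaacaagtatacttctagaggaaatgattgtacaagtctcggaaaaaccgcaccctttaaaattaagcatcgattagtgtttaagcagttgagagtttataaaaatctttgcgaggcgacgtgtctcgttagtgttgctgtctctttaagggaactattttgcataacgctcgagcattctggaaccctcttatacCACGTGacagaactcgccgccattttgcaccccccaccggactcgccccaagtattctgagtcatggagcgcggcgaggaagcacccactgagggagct
4930502E18Rik: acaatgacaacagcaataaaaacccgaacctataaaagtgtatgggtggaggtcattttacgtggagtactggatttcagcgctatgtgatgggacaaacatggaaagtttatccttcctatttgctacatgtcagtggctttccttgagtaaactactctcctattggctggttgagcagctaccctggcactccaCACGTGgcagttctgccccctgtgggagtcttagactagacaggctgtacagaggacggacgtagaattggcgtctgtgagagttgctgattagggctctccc

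The E-box, a palindrome and so the same on both strands, was in 7.15 % of all promoter windows and in 8.59 % of those on the X chromosome. The letters TCCCGC, the motif of the repressor E2F6, were in none (0) of the 8 promoters and in 20 % of all windows. The Taf7l window held 17 CpG dinucleotides, the most of the 8, that of Rhox1 held 0, and the median of all windows was 7.

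Against day 0, 4 of the 8 genes passed in Nons cells at day 5, where 23.4 % of the genes tested did. Taf7l was higher, and 4930550L24Rik (log2 change -5.83, SE 0.63, adjusted p = 7.58e-06), 1700080O16Rik (-2.30, SE 0.65, adjusted p = 0.0165) and 4930502E18Rik (-1.37, SE 0.39, adjusted p = 0.0186) were lower by the quasi-likelihood test of edgeR with Benjamini-Hochberg adjustment, and of the genes tested 13.0 % were higher and 10.5 % lower. The calls of the last 2 genes were not stable. Without replicate 2 of day 0 the adjusted p of 1700080O16Rik was 0.0529 and that of 4930502E18Rik 0.0769, without replicate 1 of Nons at day 5 that of 4930502E18Rik was 0.0961, and without replicate 2 of Nons at day 5 they were 0.0856 and 0.0651 (edgeR). Without replicate 1 of Nons at day 5 the changes of 4930550L24Rik and 1700080O16Rik became -10.1 and -4.67, and with 1 SNP per gene that of 4930502E18Rik became -3.15 (adjusted p = 0.00104, edgeR). Rhox1 (-1.14, adjusted p = 0.0825), 4930519F16Rik (-1.70, adjusted p = 0.122), 1700013H16Rik (-0.61, adjusted p = 0.0930) and Rhox13 (0.73, adjusted p = 0.436) did not pass, although with the replicate as a block 1700013H16Rik did (-0.63, adjusted p = 0.0320, edgeR). Between day 0 and day 3 in Nons, 6.50 % of all genes tested passed and 0 of the 8 genes did (23 of all genes, or 47 with the replicate block, which also called 0 of the 8), with the 8 log2 differences lying between -0.48 and 0.74.

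A list of other X-linked genes from families with germline members gave a setting for these values. It was made by gene symbol, so not all of its genes are restricted to the germline. Esx1 and Rhox9, used above as trophoblast markers, are among them, as is Maged1, at 572 to 787 in the 14 libraries. Of 28 other genes with SNPs, among them Mage, Rhox, Xlr and Tex genes, 14 fell and 2 rose from day 3 to day 5 (edgeR, adjusted p under 0.05), with a median log2 change of -0.43. Magea8 (-3.03), Magea5 (-2.53), Mageb4 (-2.83), Tex13c2 (-1.50), Rhox2h (-3.83) and Rhox2c (-2.22) were among those that fell, and Maged2 (1.10), which is expressed in many tissues, and Rhox9 (1.02) rose. The sizes for Rhox2h, Rhox2c and Mageb4 rest on few reads. They had at most 5, 4 and 7 reads in a library at day 3, and at most 2, 1 and 2 at day 5. The Magea and Rhox2 genes have near-identical copies, so reads could be shared among them. Of 7 other genes named after RIKEN clones, 1 (2610002M06Rik, 1.10) rose and 0 fell, beside the same shares of all genes. The same lists had 0 genes past the threshold between Setdb1 hairpins and Nons at day 5, where 0 of the 354 genes passed.

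By rank correlation over the 14 libraries, given as a description, the gene most like 4930550L24Rik was Tex13c2 (Spearman's rho 0.93), the gene most like 1700080O16Rik was Mageb4 (0.87), and 4930502E18Rik was most like Ebp (0.94) and Magea5 (0.93). Taf7l was most like Armcx2 (0.89), Rhox1 was most like Gk (0.86), and 1700013H16Rik was most like Xlr (0.77), whose name it shares in part. The points of each correlation share their day, depth and line.

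The knockdown comparison asked whether the level of these genes differed between cells with a Setdb1 hairpin and cells with Nons. At day 5, 0 of the 354 genes passed (0 %), the 8 genes among them, by the quasi-likelihood test of edgeR with Benjamini-Hochberg adjustment, 13 genes had an unadjusted p under 0.05, and DESeq2 called 0. At day 3 the numbers were 0 genes by both tools and 7 genes by the unadjusted p. A change of this difference between day 3 and day 5 passed edgeR's test in 0 of the 354 genes (0 %, with 9 at an unadjusted p under 0.05 and 0 by DESeq2). The values of the 8 genes are therefore differences that did not pass the test.

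Taf7l was higher than Nons with both hairpins in both replicates at day 3 and again at day 5, in 4 of 4 comparisons within replicates each time. The log2 difference was 0.74 at day 3 (SE 0.35, adjusted p = 0.996) and 0.97 at day 5 (SE 0.30, adjusted p = 0.951, edgeR). Its hairpin libraries did not overlap Nons on either day, which 5.65 % of all genes did in this direction at day 5 and 5.37 % at day 3, and 0 of the 8 genes lay wholly below Nons, as 4.24 % and 4.52 % of genes did. On both days together 3 of the 354 genes (0.847 %) had all hairpin libraries above Nons. These were Taf7l and a pair of the other X-linked germline genes, Tex11 and Fthl17f, which were looked at after their values were seen. Tex11 was 26.4 and 18.2 with Nons and from 40.1 to 55.4 with the hairpins at day 5, and Fthl17f was 29.9 and 27.3 against 39.4 to 67.3. Both hairpins were above Nons within both replicates in 2 of the 8 genes at day 5 (Taf7l and 4930550L24Rik) and in 1 of the 8 at day 3 (Taf7l), beside 11 % and 10.2 % of all genes. At day 5 the difference was 0.67 (SE 0.33, adjusted p = 0.998) with shSetdb1.4 and 1.27 (SE 0.33, adjusted p = 0.274) with shSetdb1.6, and the hairpins differed from each other by -0.60 (SE 0.31, adjusted p = 0.805, edgeR).

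**Figure D3:**
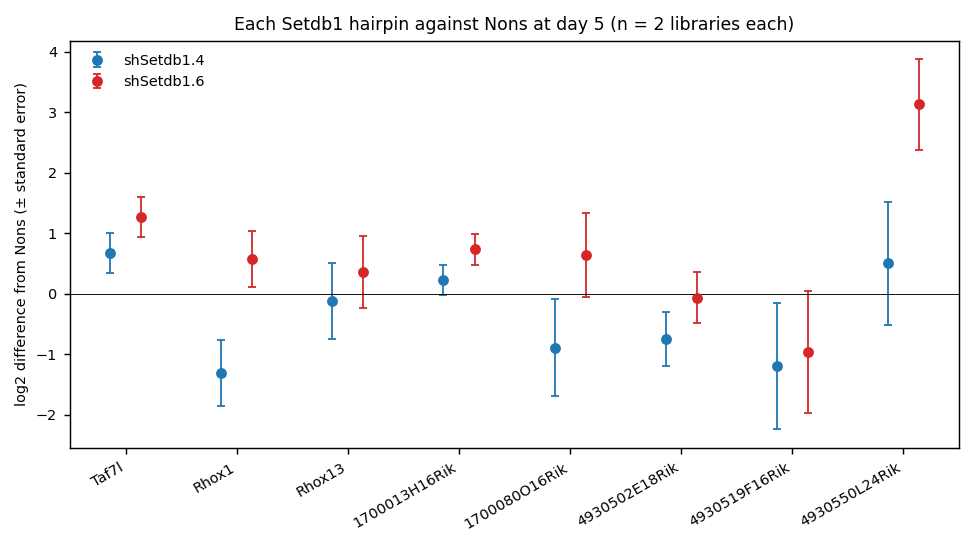
Log2 difference from Nons at day 5 (y axis) for each of the 8 genes (x axis), with shSetdb1.4 in blue and shSetdb1.6 in red (2 libraries each, bars are standard errors of the fit). The red point lies above the blue point in each of the 8 genes, and the largest value is 3.13 for 4930550L24Rik with shSetdb1.6.

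The 2 hairpins were apart for 4930550L24Rik and Rhox1. 4930550L24Rik, at 4 reads in the 2 Nons libraries and 54 in the 2 shSetdb1.6 libraries of day 5, was higher with shSetdb1.6 by a log2 difference of 3.13 (SE 0.75, adjusted p = 0.260), while shSetdb1.4, with 8 reads, differed by 0.50 (SE 1.02, adjusted p = 0.998, edgeR). The difference between the hairpins, shSetdb1.4 minus shSetdb1.6, was -2.63 (SE 0.63, adjusted p = 0.233, edgeR), and DESeq2 gave an adjusted p of 0.0149. At day 3 the shSetdb1.6 libraries of this gene, 439 and 523, were already above the other 4, with a difference between the hairpins of -0.54 (SE 0.36, adjusted p = 0.555, edgeR). Even with shSetdb1.6 the day 5 level was below every day 3 level.

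Rhox1 at day 5 was lower than Nons with shSetdb1.4 in both replicates (log2 difference -1.31, SE 0.55, adjusted p = 0.998) and higher with shSetdb1.6 in both (0.58, SE 0.47, adjusted p = 0.945, edgeR). The same order of shSetdb1.4, Nons and shSetdb1.6 within both replicates was measured for 1700080O16Rik, where replicate 2 rests on 2 reads with shSetdb1.4 and 1 read with Nons and so is within counting error, and in 5.65 % of all genes tested. None (0) of the 354 genes passed edgeR's test of the difference between the hairpins at day 5, with 24 genes at an unadjusted p under 0.05, and DESeq2 called 1, which was 4930550L24Rik. Nr0b1, the pluripotency marker, was 13.8 and 30.3 with Nons, 10.4 and 23.6 with shSetdb1.4, while shSetdb1.6 gave 38.6 and 45.8 at day 5, so its highest libraries were also those with shSetdb1.6. Its part in the differences between the hairpins was not tested.

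The allelic origin of the reads could be followed in every library for Taf7l and 1700013H16Rik, the 2 genes with at least 10 reads in each. Over all SNPs the CAST share was 48.1 % and 49.3 % at day 0, from 49.4 % to 50.6 % at day 3 and from 42.6 % to 53.8 % at day 5. The reads carry no molecular identifiers and may repeat a molecule, so the 95 % Wilson intervals given here cover counting error only.

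Taf7l had more 129 than CAST reads in all 14 libraries. At day 0 its CAST share was 23.5 % (interval 9.56 % to 47.3 %) and 30 % (10.8 % to 60.3 %), or 7 of 27 reads over both libraries (25.9 %). In Nons cells it was 42.9 % (interval 21.4 % to 67.4 %) and 42.1 % (23.1 % to 63.7 %) at day 3 and 13.8 % (7.16 % to 24.9 %) and 21.7 % (9.66 % to 41.9 %) at day 5. Summed over its 2 SNPs, the rise of Taf7l in Nons was mainly in reads of the active X. The 129 level went from 15.6 and 13.8 at day 3 to 57.4 and 54.6 at day 5, and the CAST level from 11.7 and 10.0 to 9.19 and 15.2. The SNPs differed, however. In replicates 1 and 2 of Nons, the UTR SNP had 1 of 6 and 0 of 8 CAST reads at day 3. At day 5 it had 3 of 34 and 4 of 17. The coding SNP had 5 of 8 and 8 of 11 at day 3, and 5 of 24 and 1 of 6 at day 5. Only the coding SNP had a smaller CAST share at day 5 in both replicates. The log2 change of the CAST/129 ratio was -1.92 (SE 0.73, adjusted p = 0.0645, edgeR), which did not pass the threshold of 0.05, in a comparison in which 10.1 % of the 247 genes tested had a lower ratio and 0.405 % a higher one. From day 0 to day 5 in Nons the change of the ratio was -0.87 (SE 0.85, adjusted p = 0.602, edgeR).

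With the Setdb1 hairpins the CAST share of Taf7l at day 5 was 30.4 % and 32.9 % (shSetdb1.4) or 38.4 % and 29.4 % (shSetdb1.6), above Nons in all 4 libraries. The CAST level was 40.1 and 26.6 (shSetdb1.4) or 75.2 and 41.6 (shSetdb1.6), above the Nons values of 9.19 and 15.2. The 129 level was 92.0 and 54.2 (shSetdb1.4) or 121 and 99.9 (shSetdb1.6), of which replicate 2 of shSetdb1.4 was within the range of Nons. The log2 difference of the ratio was 1.34 (SE 0.49, adjusted p = 0.0795, edgeR) and did not pass. Over all 247 genes the median was 0.35 and 4.45 % passed. With 1 library left out the difference was between 0.75 (adjusted p = 0.725, without replicate 1 of Nons) and 1.66 (adjusted p = 0.177, without replicate 2 of Nons), and it passed in 1 of 6 such fits, that without replicate 1 of shSetdb1.4 (1.42, adjusted p = 0.0432, edgeR), in which 52 genes passed in place of 11. Centred on the median ratio of each library it was 1.02 (adjusted p = 0.481, edgeR). At day 3 the difference was -0.31 (SE 0.64, adjusted p = 0.984, edgeR).

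**Figure D4:**
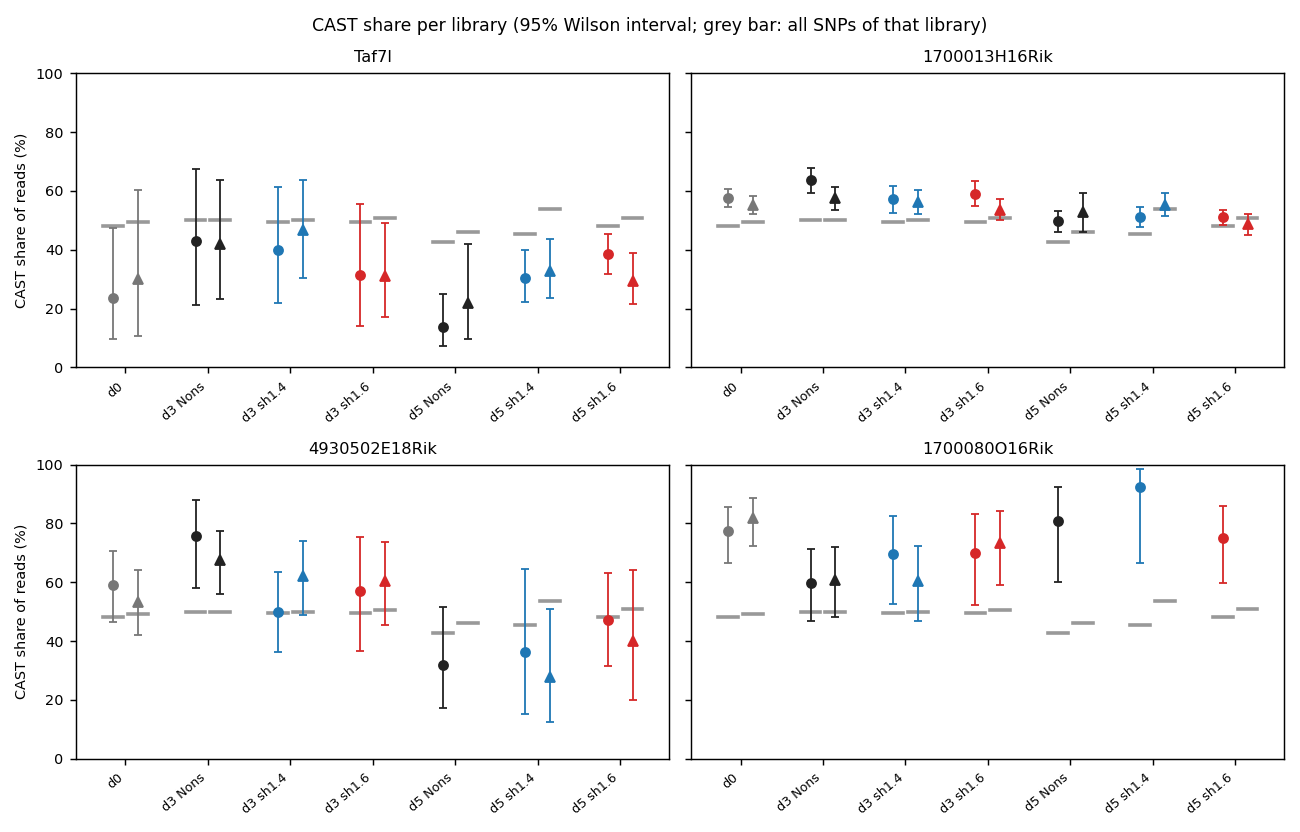
CAST share of reads in percent (y axis, 0 to 100) in each library (x axis, circles replicate 1, triangles replicate 2, bars 95 % Wilson intervals) for 4 genes, in libraries with at least 10 reads of the gene. Grey bars are the share over all SNPs of that library. Taf7l in Nons at day 5 (13.8 % and 21.7 %) lies below its other day 5 libraries, and 1700080O16Rik lies above the grey bars throughout.

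1700013H16Rik had CAST shares from 53.6 % to 63.7 % at day 0 and day 3, above the share over all SNPs in each of the 8 libraries, and from 48.6 % to 55.4 % at day 5, above it in 5 of 6. Over the libraries of a day the share was 56.4 % (54.3 % to 58.5 %) at day 0, 57.5 % (55.8 % to 59.1 %) at day 3 and 51.1 % (49.7 % to 52.5 %) at day 5. In Nons its ratio fell by 0.58 on the log2 scale from day 3 to day 5 (SE 0.20, adjusted p = 0.0451, edgeR), and the call was lost when any of the 4 Nons libraries was left out (adjusted p from 0.0616 to 0.563) and with ratios centred on each library's median (change -0.23, adjusted p = 0.440). The difference of the hairpins from Nons at day 5 was 0.06 (SE 0.17, adjusted p = 0.846, edgeR).

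The ratios of the other 6 genes were not fitted because a library had under 10 reads, and their shares are given as a description. In 1700080O16Rik the CAST allele was the stronger one already at day 0, with 77.5 % (66.5 % to 85.6 %) and 81.9 % (72.3 % to 88.7 %) CAST reads, and at each of its 6 SNPs the share over day 0 and day 3 was between 62.7 % and 74.2 %. Over the 6 libraries of day 5, 66 of 86 reads were CAST (76.7 %, interval 66.8 % to 84.4 %), so this gene fell from day 3 to day 5 with no smaller CAST share. In 4930502E18Rik, by contrast, the CAST share over the libraries was 62.3 % (56.3 % to 67.9 %) of 265 reads at day 3 and 35.7 % (27.4 % to 44.9 %) of 112 reads at day 5.

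4930550L24Rik was even between the alleles before its fall, with 52.8 % CAST reads of 1226 at day 3 (50.0 % to 55.6 %), and both alleles fell. Its 54 reads with shSetdb1.6 at day 5 were 33 of 129 and 21 of CAST, so the remaining reads came from both X chromosomes. Rhox1 was weighted to the 129 allele, with CAST shares of 35.1 % at day 0, 30.6 % at day 3 and 24.1 % at day 5 over the libraries. At day 5, 0 of its 13 reads with shSetdb1.4 were CAST, which allows a share of up to 23.1 %, against 18 of 51 with shSetdb1.6 (35.3 %) and 3 of 23 with Nons (13.0 %). Rhox13 had 33 CAST reads of 51 at day 5 (64.7 %, interval 51.0 % to 76.4 %) and 19 of 29 at day 3 (65.5 %), and 4930519F16Rik had 6 of 16 at day 5 (37.5 %) and 30 of 64 at day 3 (46.9 %), for which no shift could be seen at this depth.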

How the data were processed

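RNA from 14 libraries was sequenced by the authors as 100 bp single-end reads (TruSeq RNA), mapped to mm10 with Subread, and counted with samtools pileup at X-linked SNPs of the Mouse Genomes Project (the submitters' notes also name CASAVA 1.8.2). The deposited values are raw counts of reads with the 129 or CAST base, not normalized. 4 further per-sample columns were not used. The day of transduction differs between the sources (start of differentiation, the following day, or day 2 by the labels). A SNP was given to a gene where it lay in an exon of that gene in GENCODE (mm10), and counts were summed per gene, so a read over 2 SNPs of a gene counts at both. Libraries ranged from 32972 to 101511 reads.

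Totals were fitted over all 14 libraries with edgeR 4.0.16 in R 4.3.3 (quasi-likelihood test, TMM, 7 conditions, no replicate block) for 354 genes with a mean of at least 2 reads per library, which all 8 genes passed. CAST/129 ratios were fitted on 28 allele columns with a term per library, an allele effect per condition and a replicate block, for 247 genes (10 or more reads in all 14 libraries), which 2 of the 8 passed. P-values were Benjamini-Hochberg adjusted over all genes tested, with a threshold of 0.05. Nothing says that the replicates were separate cultures beyond the description of independent experiments, and all are of 1 line, so p-values measure the spread between these libraries. Alternatives changed the normalization, filter, block, test (DESeq2 1.42.0), SNPs per gene, centring and libraries. The fits were tested on simulated data. Tables were made with Python 3.11.15, and promoter windows (250 bases before to 50 after the start) are from RefSeq, GRCm38.p6. All 8 genes are named whatever their values, beside fixed lists of other genes, of which some are not reported here. The members and lists were chosen with earlier results of these data known.

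The replicate number was taken to mark 1 of 2 independent experiments, since the study compared hairpins with Nons within each replicate. Deviations from the condition means were shared in part by libraries of the same number (mean correlation 0.13, 13 of 21 pairs over 0.1).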

Additional observations from a re-analysis of the deposited data

Results flagged for a closer look

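Rhox1 and 1700080O16Rik were picked out because at day 5 the 2 hairpins lay on opposite sides of Nons in both replicates, shSetdb1.4 below and shSetdb1.6 above. For Rhox1 the log2 difference of shSetdb1.4 from shSetdb1.6 was -1.89 (SE 0.50, adjusted p = 0.233 by the quasi-likelihood test of edgeR with Benjamini-Hochberg adjustment). For 1700080O16Rik it was -1.53 (SE 0.72, adjusted p = 0.709, edgeR). In replicate 2 its levels rest on 2 reads with shSetdb1.4, 1 with Nons and 9 with shSetdb1.6, and the Nons level of 3.03 is below the 9.10 that 3 reads would give, so the order of shSetdb1.4 and Nons there is within counting error. Rhox1 had 3, 18 and 35 reads in replicate 1 and 10, 5 and 16 in replicate 2 for shSetdb1.4, Nons and shSetdb1.6. Neither difference passed the threshold, and 5.65 % of the 354 genes tested showed the same order. For Rhox1 the change of the hairpin difference from day 3 to day 5 was -1.78 (SE 0.66, adjusted p = 0.348, edgeR).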

How the results depend on the processing

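The 6 calls of the 8 genes between day 3 and day 5, averaged over Nons and both Setdb1 hairpins, kept their direction and passed under each alternative and with each library left out, where the gene could be fitted. Counts over all genes moved more. For Nons at day 5 against day 0, 83 genes passed, and 47 without the libraries outside the comparison. For Nons at day 3 against day 0, 23 passed, against 47 with the replicate block, 0 without the libraries outside the comparison, and between 0 and 41 with 1 library left out. For totals in Nons at day 5 against day 3, 93 passed, and between 44 (without replicate 2 of day 3) and 81 with 1 library left out, alternatives chosen after seeing the data. For the difference between the hairpins at day 5, 0 passed, against 1 with DESeq2 and between 0 and 1 with 1 library left out.

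Of the CAST/129 ratios, 11 passed for the hairpins against Nons at day 5. There were 15 with at least 30 reads in every library, 3 with a mean of at least 10 reads per library, 1 with DESeq2, 0 with no replicate block, 1 with centred ratios, 1 with 1 SNP per gene, 3 without the libraries outside the comparison, and between 0 and 52 with 1 library left out (52 without replicate 1 of shSetdb1.4). At day 3, 0 passed, against 1 with a mean of at least 10 reads and between 0 and 1 with 1 library left out. For Nons at day 5 against day 3, 26 passed, against 6 with 1 SNP per gene, 7 without the libraries outside the comparison, and between 10 and 13 with 1 library left out. The causes were not tested.

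In Nons at day 5 against day 0, the replicate block called 1700013H16Rik (log2 change -0.63, adjusted p = 0.0320, edgeR), as did scaling to library totals (-0.81, adjusted p = 0.0307), which also called Rhox1 (-1.34, adjusted p = 0.0398). A minimum of 10 reads in every library also called 1700013H16Rik (-0.75, adjusted p = 0.0494), and 1 SNP per gene called Rhox1 (-1.22, adjusted p = 0.0474) and lost 1700080O16Rik (-1.82, adjusted p = 0.0649). Without the libraries outside the comparison 4930502E18Rik was lost (-1.40, adjusted p = 0.0778). Scaling to library totals moved the median of all genes in this comparison from -0.04 to -0.23, and from 0.01 to -0.12 for Nons at day 3 against day 0. In Nons at day 5 against day 3, 1 SNP per gene lost the total of 1700080O16Rik (-1.84, adjusted p = 0.0668, edgeR). The block changed no other call of the 8 genes in totals. With no replicate block the ratio of 1700013H16Rik in Nons, day 5 against day 3, lost its call (-0.56, adjusted p = 0.110, edgeR). Depth limits Rhox13 and 4930519F16Rik, and all day 5 ratios except those of Taf7l and 1700013H16Rik.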
